A study of Homo sapiens with 4 samples.

Results

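The genes encoded by the mitochondrial genome were examined in IMR-32 cells, an established human neuroblastoma line with amplified MYCN, after knockdown of the transcription factor NeuroD1. Members were all genes whose symbol starts with MT-, which gave 37 of the 60612 genes in the count table: 13 protein-coding genes, 2 ribosomal RNA (rRNA) genes and 22 transfer RNA (tRNA) genes. RNA sequencing (RNAseq) was done on 4 libraries. The 2 shControl libraries came from cells with an inducible control hairpin, whose genotype the labels give as WT, and the 2 shNeuroD1 libraries from cells with an inducible hairpin against NeuroD1, labelled as NeuroD1 knockdown. All cells were stably transduced and received 1 µg/mL doxycycline, the drug that switches the hairpin on, for 48 h. The labels do not say which hairpin each knockdown library carried, and the study's own table of these counts heads both columns with the same hairpin name. The labels do not say whether libraries of a group came from separate cultures, so p-values measure only the spread between these libraries, which may be technical.

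The mitochondrial genome is a small circular DNA present in many copies per cell. It encodes core subunits of respiratory chain complexes I, III and IV and of the ATP synthase (complex V), together with the rRNAs and tRNAs needed to translate them inside the organelle. Both strands are transcribed as long precursors, which are cut into single RNAs mainly at the tRNAs that lie between the other genes. The mature mRNAs, apart from that of MT-ND6, carry short poly(A) tails, and the tails complete the stop codons of several of them. All other subunits of the respiratory complexes, and every protein that copies, transcribes and processes the mitochondrial genome, come from nuclear genes.

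In the GENCODE annotation of GRCh38, 28 members, including 14 protein-coding and rRNA genes, are read from the plus strand of chromosome M (the heavy strand transcripts), and 9 from the minus strand (MT-ND6 and 8 tRNAs, the light strand transcripts). Several members share bases, and a read from shared bases cannot be given to 1 gene by position alone. The end of MT-ND4L and the start of MT-ND4 are shown because both lie on 1 mRNA and overlap by 7 bases, which are in capitals. The windows are chrM:10737-10766 and, for MT-ND4, the first 30 bases of the gene from chrM:10760, both on the plus strand of GRCh38, 5′ to 3′.
MT-ND4L end: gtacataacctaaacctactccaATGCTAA
MT-ND4 start: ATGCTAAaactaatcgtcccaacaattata
MT-ATP8 and MT-ATP6 likewise share 46 bases at chrM:8527-8572, and MT-CO3 begins at the last base of MT-ATP6, position 9207.

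The annotated 3′ ends of the protein-coding members show which genes lack a full stop codon, so that a poly(A) tail has to finish it. Of the 13, 7 end in complete stop codons in the annotation and 6 in only T or TA. The last 20 bases of the sense strand are given for these 6 and for 4 with complete stops, with the bases of the stop in capitals. AGA and AGG are stop codons of the mitochondrial code in these genes. MT-ATP6 is counted as complete, but the last base of its TAA, position 9207, is also the first base of MT-CO3. An MT-ATP6 mRNA cut before that base would end in TA, so its place among the 7 holds for the annotation only.
MT-ND1 end: agcattccccctcaaaccTA
MT-ND2 end: ttttatactaataatcttaT
MT-CO3 end: catctattgatgagggtctT
MT-ND3 end: aggattagactgaaccgaaT
MT-ND4 end: cattaccgggttttcctctT
MT-CYB end: caaaatactcaaatgggccT
MT-CO1 end: ccgtatacataaaatctAGA
MT-ATP8 end: cattgcccccacaatccTAG
MT-ND5 end: ccctactcctaatcacaTAA
MT-ND6 end: agattgctcgggggaatAGG

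The libraries held 15403815 and 16482463 counts for shControl and 14665210 and 14677569 for shNeuroD1. NEUROD1, the targeted gene, measured 419 and 414 CPM (the count relative to the TMM-scaled library total) in shControl and 63.7 and 58.2 in shNeuroD1, which is 14.6% of control (log2 fold change -2.77, SE 0.05, edgeR adjusted p = 8.6e-29). Neuroblastoma markers were present in all libraries. Of 8, 3 were higher (37.5%, against 26.8% of all genes tested) and 4 lower (50%, against 28.2%) after knockdown. Mean HAND2 was 787 CPM in shControl and 718 in shNeuroD1 (log2 fold change -0.13, edgeR adjusted p = 0.0038), whereas TH and DBH lay below 6 CPM throughout. The markers ranged from DBH (log2 fold change -1.01, edgeR adjusted p = 0.034) to TH. Mean TH was 0.97 CPM in shControl and 5.49 in shNeuroD1 (log2 fold change 2.48, edgeR adjusted p = 8.3e-09). Of 8 markers of other cells 2 passed the filter on low counts, namely ACTA2 (2.42 and 3.58 CPM, edgeR adjusted p = 0.0719) and the epithelial gene EPCAM (0.03 and 1.61 CPM). EPCAM was called higher after knockdown (edgeR adjusted p = 7.0e-07), its counts being 0 and 1 for the controls and 28 and 21 for the knockdown libraries. CD3E and KRT5 were at 0, and the part of these markers in the results was not tested.

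A larger share of the counts came from the mitochondrial genome after NeuroD1 knockdown. The 37 members together took 4.37% (exact binomial 95% interval 4.36 to 4.38) and 4.59% (4.58 to 4.60) of all counts in the 2 shControl libraries and 5.39% (5.37 to 5.40) and 5.51% (5.49 to 5.52) in the 2 shNeuroD1 libraries. Both knockdown libraries lay above both controls, the group means were 4.48% ± 0.161 and 5.45% ± 0.0850 (SD, n = 2 each), and their ratio was 1.22. These intervals cover counting error only, and no p is given for a sum over the members. In bulk RNA, a change in the mix of cells and a change in RNA per cell cannot be told apart. Without the 2 rRNAs the ratio was 1.20, and without MT-CO1, the member with the most counts, it was 1.21. The share is a fraction of the whole library and therefore also moves with all other genes. After TMM scaling, the summed level of the members reached 45629 and 47680 CPM in shControl and 51923 and 53076 CPM in shNeuroD1, a log2 ratio of 0.17.

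**Figure D1:**
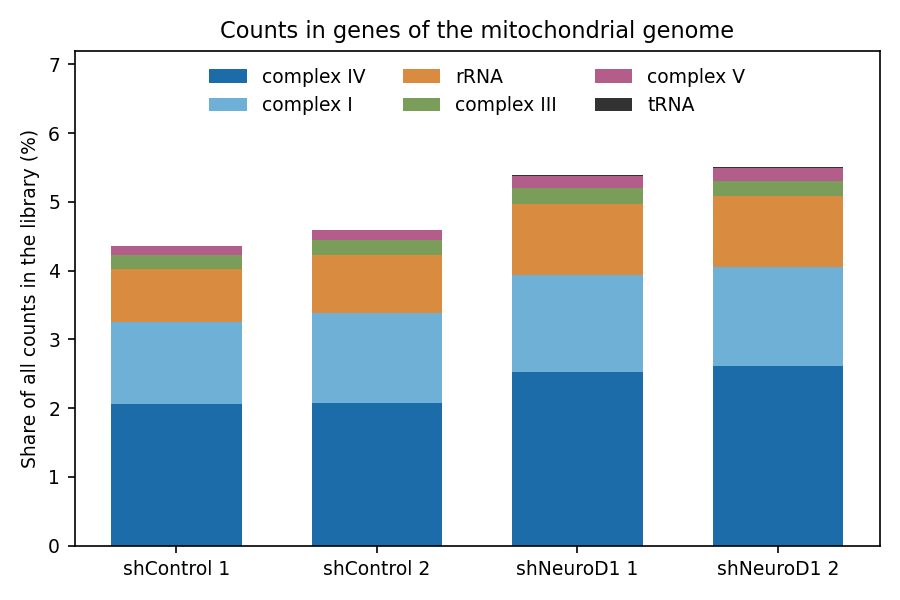
Percent of all counts per library in the 37 genes of the mitochondrial genome, split by class (vertical axis, percent; 1 bar per library, 2 shControl and 2 shNeuroD1). The 2 shNeuroD1 bars reach 5.39% and 5.51%, above the 4.37% and 4.59% of the shControl bars.

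The share changed in unequal measure over the classes. Protein-coding members took 3.58% and 3.75% of each shControl library and 4.35% and 4.48% of each shNeuroD1 library, a ratio of 1.20. The 2 rRNAs held 0.780% and 0.838% of the shControl libraries against 1.03% and 1.02% of the shNeuroD1 libraries, a ratio of 1.27. Neither class overlapped between the groups. By complex, the ratio of mean shares was 1.14 for the 7 complex I members, 1.05 for the complex III member, 1.24 for the 3 complex IV members and 1.45 for the 2 complex V members. Complex III overlapped between the groups, at 0.205% and 0.227% in shControl and 0.225% and 0.228% in shNeuroD1. These shares are not scaled, and with libraries scaled by their size alone the median log2 fold change of all genes tested was 0.12. After TMM scaling the log2 ratios were 0.08 for complex I, -0.05 for complex III, 0.20 for complex IV and 0.42 for complex V. For the 9 light strand members the ratio was 0.875: they held 0.0466% and 0.0507% of the controls and 0.0433% and 0.0419% of the knockdown libraries. Most of their counts came from MT-ND6, with 6358 of 7176 in shControl library 1. MT-TP, the only other light strand gene with more than a few counts, did not fall on the unscaled libraries (log2 fold change 0.10, edgeR adjusted p = 0.197).

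At the level of single genes, 16 of the 37 members passed the filter on low counts, and the 21 not tested were all tRNA genes. With an adjusted p under 0.05 as the rule, 10 of the 16 rose after knockdown, 2 fell and 4 did not pass. Over all 17537 genes tested, 26.8% were higher and 28.2% lower by the same rule. The median log2 fold change of all genes tested was 0.01. In 10 members both knockdown libraries lay above both controls and in 2 both lay below, against 38.4% and 37.7% of all genes tested. The study's own rule also asked for a log2 fold change beyond 1, which 8.79% of all genes tested passed as higher and 5.14% as lower. No member reached that size, and the members ranged from -0.34 for MT-ND6 to 0.48 for MT-ATP8.

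**Figure D2:**
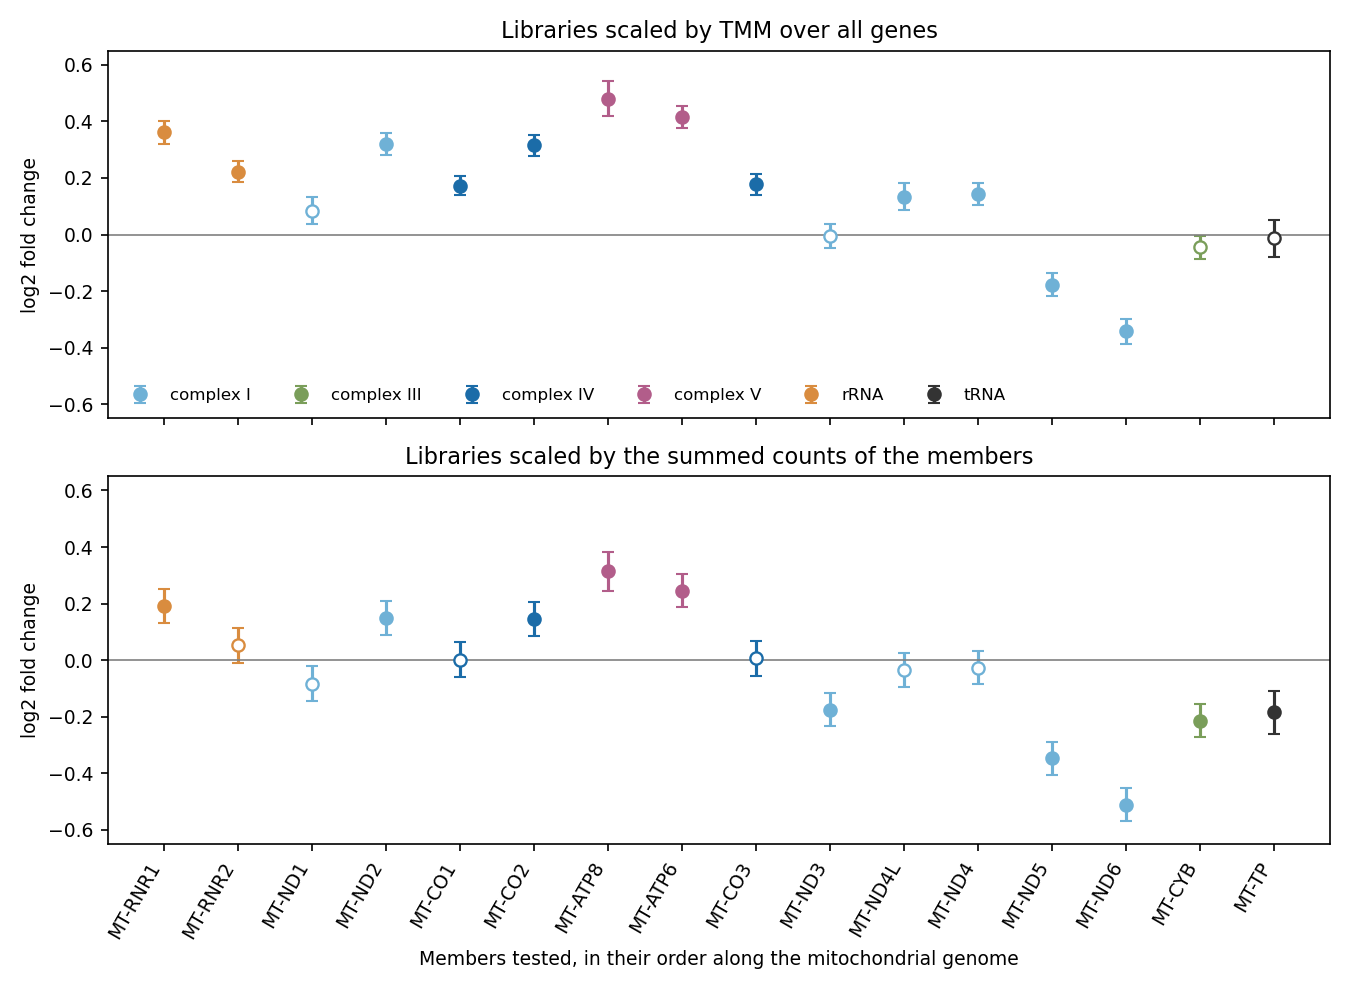
Log2 fold change of each tested member, shNeuroD1 against shControl (vertical axis, log2; bars, standard error of the edgeR fit; white centres, not called), along the genome, with TMM scaling in the upper panel and the members' sum in the lower. In the upper panel the values run from 0.36 at MT-RNR1 near the start to -0.18 at MT-ND5 and -0.34 at MT-ND6, and peak at MT-ATP8 and MT-ATP6 with 0.48 and 0.42.

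Complex V held the members with the highest rise. MT-ATP8 (ENSG00000228253, chrM:8366-8572) and MT-ATP6 (ENSG00000198899, chrM:8527-9207) encode subunits of the membrane part of the ATP synthase, and MT-ATP6 helps to form the proton path. MT-ATP6 measured 1224 and 1295 CPM in shControl and 1626 and 1735.5 CPM in shNeuroD1, so that the groups were well apart. Its level in shNeuroD1 was 133% of control (log2 fold change 0.42, SE 0.04, edgeR adjusted p = 1.7e-10). MT-ATP8 measured 89.1 and 106 CPM in shControl and 144 and 128 CPM in shNeuroD1. Both knockdown libraries were above both controls, at 139.8% of control (log2 fold change 0.48, SE 0.06, edgeR adjusted p = 6.6e-08). The call for MT-ATP8 was lost without shControl library 1 (log2 fold change 0.35, edgeR adjusted p = 0.0553). Counts in the bases that both genes share cannot be divided between them.

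All 3 complex IV members rose. They encode the catalytic core of cytochrome c oxidase, the enzyme that passes electrons to oxygen. MT-CO1 (ENSG00000198804, chrM:5904-7445), the subunit that holds the oxygen-reducing centre, measured 13149 and 13334 CPM in shControl and 14799 and 15051 CPM in shNeuroD1 (log2 fold change 0.17, SE 0.03, edgeR adjusted p = 7.6e-05). MT-CO2 (ENSG00000198712, chrM:7586-8269), which takes electrons from cytochrome c, measured 4208 and 4205 CPM in shControl and 5097 and 5372.5 CPM in shNeuroD1 (log2 fold change 0.32, SE 0.04, edgeR adjusted p = 8.5e-09). The groups did not overlap for either gene, and the 2 controls of MT-CO2 were nearly equal. MT-CO3 (ENSG00000198938, chrM:9207-9990) measured 4143 and 4038 CPM in shControl and 4491 and 4761 CPM in shNeuroD1 (log2 fold change 0.18, SE 0.04, edgeR adjusted p = 0.00015). Both knockdown libraries were again above both controls. The MT-CO3 call was lost without shControl library 2 (edgeR adjusted p = 0.0684).

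Both rRNA genes rose. MT-RNR1 (12S rRNA, ENSG00000211459, chrM:648-1601) and MT-RNR2 (16S rRNA, ENSG00000210082, chrM:1671-3229) form the small and large subunits of the mitochondrial ribosome and stand first on the heavy strand transcript. MT-RNR1 measured 538 and 510.1 CPM in shControl and 679 and 668 CPM in shNeuroD1, 128.5% of control (log2 fold change 0.36, SE 0.04, edgeR adjusted p = 3.6e-09). MT-RNR2 measured 7619 and 8184 CPM in shControl and 9254 and 9169 CPM in shNeuroD1, 117% of control (log2 fold change 0.22, SE 0.04, edgeR adjusted p = 6.4e-06). The groups did not overlap for either rRNA. The RNA is labelled as poly(A) RNA, while the protocol names either poly(A) isolation or rRNA removal, and both steps can set how much of these rRNAs is seen.

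Of the 7 complex I members, 3 were higher (42.9%, against 26.8% of all genes tested). A further 2 were lower (28.6%, near the 28.2% of all genes) and 2 were not called. The sets are small. The 7 members encode core subunits in the membrane arm of NADH dehydrogenase, the entry point of electrons from NADH. MT-ND2 (ENSG00000198763, chrM:4470-5511) rose most: it measured 2318 and 2402 CPM in shControl and 2817 and 3073 CPM in shNeuroD1 (log2 fold change 0.32, SE 0.04, edgeR adjusted p = 3.7e-08). MT-ND4 (ENSG00000198886, chrM:10760-12137) measured 3675 and 3929.9 CPM in shControl and 4136 and 4264 CPM in shNeuroD1 (log2 fold change 0.14, SE 0.04, edgeR adjusted p = 0.0018). MT-ND4L (ENSG00000212907, chrM:10470-10766), on the same mRNA, measured 313 and 345 CPM in shControl and 374 and 349 CPM in shNeuroD1 (log2 fold change 0.13, SE 0.05, edgeR adjusted p = 0.015). The groups of all 3 were apart, those of MT-ND4L by a small margin. MT-ND4L was not called by DESeq2 (adjusted p = 0.0693), nor in edgeR with no filter (adjusted p = 0.187) or without shControl library 1, shControl library 2 or shNeuroD1 library 1 (adjusted p = 0.46, 0.0615 and 0.335). MT-ND4 lost its call in edgeR without shControl library 1 (adjusted p = 0.0737) or shNeuroD1 library 2 (adjusted p = 0.0765).

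MT-ND5 and MT-ND6, neighbours on opposite strands, were the 2 members that fell. MT-ND6 (ENSG00000198695, chrM:14149-14673, minus strand), the single mRNA of the light strand, measured 431 and 475 CPM in shControl and 363 and 352 CPM in shNeuroD1. Both knockdown libraries lay below both controls, at 78.9% of control (log2 fold change -0.34, SE 0.04, edgeR adjusted p = 7.3e-08). It was lower under each alternative scaling, filter, tool and left-out library tried, with log2 fold changes from -0.51 to -0.23. MT-ND5 (ENSG00000198786, chrM:12337-14148) measured 2661 and 2932 CPM in shControl and 2436 and 2507 CPM in shNeuroD1. The groups did not overlap, and the level was 88.4% of control (log2 fold change -0.18, SE 0.04, edgeR adjusted p = 0.00039). The MT-ND5 call was lost when libraries were scaled by their size alone (log2 fold change -0.07, edgeR adjusted p = 0.165) or by the upper quartile (-0.08, edgeR adjusted p = 0.0889). Whether the counting used strand is not given in the sources used here, and without strand, reads of MT-ND6 and of unprocessed RNA from the opposite strand cannot be told apart.

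The remaining complex I and III members did not pass the test. MT-ND1 (ENSG00000198888, chrM:3307-4262) measured 2365 and 2817 CPM in shControl and 2763 and 2733 CPM in shNeuroD1, a log2 fold change of 0.08 (95% interval -0.01 to 0.18, edgeR adjusted p = 0.139). MT-ND3 (ENSG00000198840, chrM:10059-10404) measured 699 and 696 CPM in shControl and 723 and 667 CPM in shNeuroD1, with an interval of -0.09 to 0.08 (edgeR adjusted p = 0.931). MT-CYB (ENSG00000198727, chrM:14747-15887), cytochrome b of complex III, measured 2142 and 2360.5 CPM in shControl and 2168 and 2195 CPM in shNeuroD1 (log2 fold change -0.05, interval -0.13 to 0.04, edgeR adjusted p = 0.359). The groups of these 3 genes overlapped, and for MT-ND1 shControl library 1 alone was low. Without shControl library 2, MT-ND1 was called higher (log2 fold change 0.21, edgeR adjusted p = 0.0064), and without shControl library 1, MT-CYB was called lower (-0.12, edgeR adjusted p = 0.0167). With library size alone, MT-ND1 (0.20) and MT-ND3 (0.11) were called higher in edgeR (adjusted p = 0.00088 and 0.0256), and with the upper quartile MT-ND1 was (0.18, adjusted p = 0.0033).

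Among the tRNA genes, MT-TP was the sole member that passed the filter. It encodes the proline tRNA (ENSG00000210196, chrM:15956-16023, minus strand) and lies at the edge of the long non-coding region. Its counts were 817, 826, 822 and 797 in shControl 1, shControl 2, shNeuroD1 1 and shNeuroD1 2, or 55.4, 52.0, 54.0 and 52.3 CPM. The groups overlapped, and the log2 fold change was -0.01 (95% interval -0.15 to 0.12, edgeR adjusted p = 0.878). The first and last 30 bases of its 68-base gene are shown, on the minus strand of GRCh38 and 5′ to 3′, since nearly all tRNA counts fell on this gene. No base is in capitals.
MT-TP first 30: cagagaatagtttaaattagaatcttagct
MT-TP last 30: taatggtggagttaaagactttttctctga
Of the other 21 tRNA genes, MT-TC had 1 count in shControl library 1 and MT-TY had 1 count in shControl library 2 and 2 counts in shNeuroD1 library 2. The other 19 had 0 counts in every library, which allows up to 3 counts per library, or 0.182 to 0.205 CPM of the unscaled library. How the libraries were size selected, and how reads shorter than a tRNA or spanning its ends were counted, was not tested.

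The level of the members differed more among themselves than between the groups. Per kilobase of gene, and on the scale of mean CPM per kilobase in shControl, MT-CO1 was highest at 8587, followed by MT-CO2 at 6150, MT-CO3 at 5217 and MT-RNR2 at 5068. The last pair overlapped between libraries. MT-ND4 at 2759 and MT-ND1 at 2710.3 came next and also overlapped, then MT-ND2 at 2265. MT-ND3 at 2016, MT-CYB at 1973 and MT-ATP6 at 1850.0 followed, each overlapping its neighbour. The lowest were MT-ND5 at 1543, MT-ND4L at 1108, MT-ND6 at 863, MT-TP at 790.0, MT-RNR1 at 549 and MT-ATP8 at 470.4, with no overlap between neighbours among these. The 3 complex IV mRNAs thus stood at the top, and the 12S rRNA, which cells hold in large amounts, stood near the bottom in these libraries. These levels use the full gene length, though MT-ATP8 shares 46 bases with MT-ATP6 and MT-ND4L shares 7 with MT-ND4. How reads in shared bases were counted is not given, so the low places of MT-ATP8 and MT-ND4L are uncertain.

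**Figure D3:**
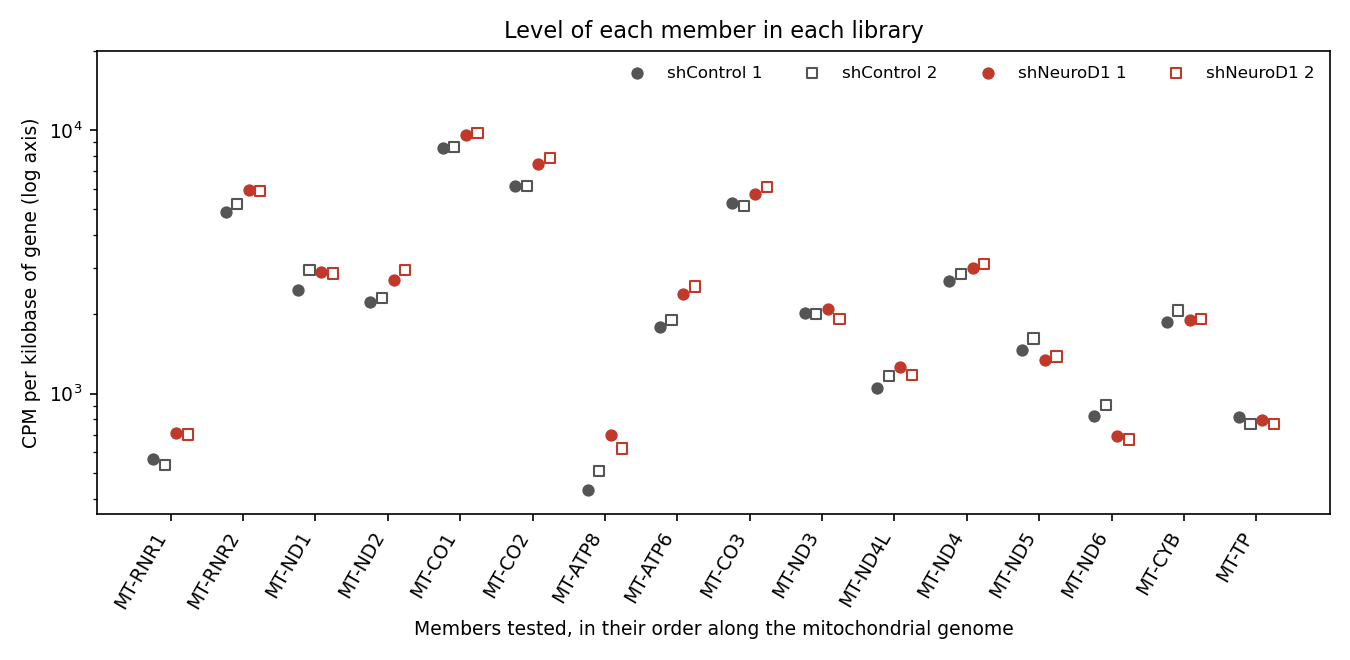
Level of each tested member in CPM per kilobase of gene (log axis), with 1 point per library, shControl and shNeuroD1 in separate colours. MT-CO1 is highest with a shControl mean of 8587 and MT-ATP8 lowest with 470.4, and the distance between genes is far larger than that between the groups.

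Measured against the mitochondrial genome itself, its balance shifted. MT-CO1 held 28.8% and 28.0% of the members' counts in shControl and 28.5% and 28.4% in shNeuroD1, so that its part was nearly the same. Complex V went from 2.88% and 2.94% in shControl to 3.41% and 3.51% in shNeuroD1, both above both controls. Complex III went from 4.69% and 4.95% to 4.18% and 4.14%, and the light strand members from 1.07% and 1.10% to 0.803% and 0.762%, both below both controls. Most of the light strand part was MT-ND6, at 0.945% and 0.995% in shControl and 0.699% and 0.663% in shNeuroD1. When the whole table was fitted with the members' summed counts as library size, 5 members were higher and 5 lower, against 17.8% and 39.7% of all genes tested, whose median log2 fold change then was -0.16. The higher members were MT-ATP8 (log2 fold change 0.31, edgeR adjusted p = 9.0e-05), MT-ATP6 (0.25), MT-RNR1 (0.19), MT-ND2 (0.15) and MT-CO2 (0.14). The lower members were MT-ND6 (log2 fold change -0.51, edgeR adjusted p = 9.0e-11), MT-ND5 (-0.35), MT-CYB (-0.21), MT-TP (-0.18) and MT-ND3 (-0.18). The sum is formed from the members, so a rise of some lowers the others on this scale.

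The changes also followed the order of the genes in part. Rank in gene order, counted over all members, was set against log2 fold change over the 14 rRNA and protein-coding members of the heavy strand. Spearman rho was -0.59 and Pearson r was -0.50. This is a description across genes that share precursors and libraries. MT-RNR1 and MT-ND2 in the first part of the genome and MT-CO2, MT-ATP8 and MT-ATP6 in the middle lay above 0.3, while MT-ND5 and MT-CYB at the end lay below 0. Other members broke the order: MT-ND1, near the start, was at 0.08, and MT-ND3, between MT-CO3 and MT-ND4L, was at -0.0049. The annotated stop codon sorted the genes less clearly. The 6 with incomplete stops had a median log2 fold change of 0.11 (-0.05 to 0.32) and the 7 with complete stops 0.17 (-0.34 to 0.48). The 7 include MT-ATP6 (0.42), whose last base is shared with MT-CO3, so these medians rest on the annotation.

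Nuclear copies of mitochondrial genes can take reads from the members, or give them reads. The table held 417 such copies, of which 8 passed the filter and 2 were called, both higher (25%, against 26.8% of all genes tested). The 3 with the most counts lie side by side on chromosome 1 of GRCh38. MTND2P28 (chr1:629640-630683) had 17 mismatches to MT-ND2 over 1042 aligned bases and measured 154 and 169.6 CPM in shControl and 191 and 207 CPM in shNeuroD1 (log2 fold change 0.30, SE 0.05, edgeR adjusted p = 6.9e-06), a call lost without shControl library 1 (edgeR adjusted p = 0.0676). MTATP6P1 (chr1:633696-634376) was 98.5% identical to MT-ATP6 and measured 121 and 137 CPM in shControl and 169 and 158 CPM in shNeuroD1 (log2 fold change 0.34, SE 0.05, edgeR adjusted p = 2.5e-06). These 2 copies moved in the direction of the member they resemble. Among the copies tested at low levels, log2 fold changes ran from -1.08 to 0.30, and none was called. MTCO1P12 (chr1:631074-632616) was 98.7% identical to MT-CO1 and did not pass the test (log2 fold change 0.26, edgeR adjusted p = 0.11), but was called higher without shControl library 2 (0.57, edgeR adjusted p = 0.0295) and with library size alone (0.37, edgeR adjusted p = 0.0226). All copies together held 0.0284% and 0.0321% of the shControl libraries and 0.0401% and 0.0405% of the shNeuroD1 libraries, and the share of members and copies together had the same ratio of 1.22. Levels of a copy and its member are uncertain to the extent that the counting could divide such reads.

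RNAs that lack poly(A) tails were rare in all libraries. Of a list of 15, 3 passed the filter, and RN7SK, RN7SL2, RMRP and RPPH1, abundant small RNAs of the nucleus and cytosol, were at 0. The list's summed share was 0.00238% and 0.00214% for the controls and 0.00170% and 0.00171% for the knockdown libraries. RN7SL1 measured 7.26 and 7.12 CPM in shControl and 7.43 and 6.70 CPM in shNeuroD1, whereas the histone gene H2BC9 was lower (log2 fold change -1.32, edgeR adjusted p = 1.5e-08). The fall of the list's share lay in H2BC9. It held 189 and 184 of the list's 367 and 353 counts in shControl, and 70 and 79 of 249 and 251 in shNeuroD1. Of the nuclear RNAs, MALAT1 had a log2 fold change of -0.04 (edgeR adjusted p = 0.417) and NEAT1 was higher at 0.80 (edgeR adjusted p = 0.0015). The part of RNA selection in the members' values was not tested.

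The nuclear genes that serve the mitochondrial genome were more often lower than higher. Over 144 genes for its transcription, replication, RNA processing, RNA modification, biogenesis and ribosomal proteins, 13 (9.03%) were higher and 65 (45.1%) lower, against 26.8% and 28.2% of all genes tested, and the list's median on the log2 scale was -0.17. With libraries scaled by their size alone, which moved the median of all genes to 0.12, these counts became 27 higher (18.8%, all genes 34.9%) and 41 lower (28.5%, all genes 20.8%). Without shControl library 1, 32 were lower (22.4%, all genes 18.8%), and without shControl library 2, 7 were higher (4.86%, all genes 15.3%) and 41 lower (28.5%, all genes 19.7%). The transcription list (8 genes) had 0 higher and 2 lower (25%, near the 28.2% of all genes), and its median was 0.06. TFAM, which packs the DNA and opens its promoters, was lower. It measured 120.3 and 109.7 CPM in shControl and 85.1 and 91.3 CPM in shNeuroD1 (log2 fold change -0.38, SE 0.06, edgeR adjusted p = 6.2e-07). Both knockdown libraries were below both controls. MTERF3, a repressor of mitochondrial transcription, was the other gene called lower (log2 fold change -0.34, edgeR adjusted p = 0.0019). The polymerase POLRMT (log2 fold change 0.03, edgeR adjusted p = 0.727), its initiation factor TFB2M (0.10, edgeR adjusted p = 0.32) and its elongation factor TEFM (-0.26, edgeR adjusted p = 0.0564) did not pass. TFB2M was called higher with library size alone (0.21, edgeR adjusted p = 0.0265) and with the upper quartile (0.19, edgeR adjusted p = 0.041). Fewer of the 8 were called lower without shControl library 1, shControl library 2 or shNeuroD1 library 1, as fewer were over all genes. With library size alone 3 of the 8 were higher and 2 lower.

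In the other machinery lists, 4 of 14 replication genes were higher (28.6%, near the 26.8% of all genes) and 6 lower (42.9%). Fewer were higher without shControl library 2, which also held for all genes tested. The largest falls were in DNA2 (log2 fold change -0.93), a nuclease that also acts on nuclear DNA, and the exonuclease MGME1 (-0.84). TK2 (0.53), a kinase that supplies nucleotides, and POLG2 (0.45), a subunit of the mitochondrial DNA polymerase, rose most. Of 18 RNA processing and stability genes, 3 were higher and 7 lower, with a median of -0.12. The counts became 5 higher and 3 lower with library size alone (all genes 34.9% and 20.8%). They were 4 and 4 with the upper quartile (all genes 33.5% and 21.6%). Fewer were called lower when shControl library 2, shNeuroD1 library 1 or shNeuroD1 library 2 was left out, as fewer were over all genes. DESeq2 called 4 lower (all genes 21.5%). TRMT10C (-0.53) fell while HSD17B10 (0.62) rose, though both belong to the complex that cuts tRNA 5′ ends. FASTKD3 (-0.37) also fell and FASTK (0.33), which binds the MT-ND6 mRNA, rose. LRPPRC, which keeps mitochondrial mRNAs stable, measured 472 and 490.4 CPM in shControl and 423 and 413 CPM in shNeuroD1 (log2 fold change -0.20, edgeR adjusted p = 8.5e-05), a call lost with library size alone (edgeR adjusted p = 0.0573). Its partner SLIRP had a log2 fold change of -0.14 (edgeR adjusted p = 0.184).

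Of 17 genes that modify mitochondrial rRNA and tRNA, 1 was higher and 6 lower (35.3%, against 28.2% of all genes). The counts became 3 higher and 1 lower with library size alone (all genes 34.9% and 20.8%) and with the upper quartile (all genes 33.5% and 21.6%). DESeq2 called 1 each way (all genes 18.2% higher and 21.5% lower). NSUN4 (log2 fold change -0.52), an rRNA methyltransferase, and CDK5RAP1 (-0.27), which modifies tRNAs, fell most, and MRM1 (0.85), another rRNA methyltransferase, rose, with a level under 6 CPM in each library. The calls of this list were lost in edgeR when shControl library 1 was left out, and fewer genes were lower without shControl library 2. All genes tested also had fewer calls in these fits. Of 9 regulators of mitochondrial biogenesis, 8 were lower and PPARGC1B (0.03) was not called, with a list median of -0.44. Fewer of the 9 were called lower when shControl library 1, shControl library 2 or shNeuroD1 library 2 was left out, as fewer were over all genes. GABPB1 (-0.76) and the nuclear receptor ESRRA (-0.72) fell most. The coactivator PPARGC1A measured 21.6 and 25.1 CPM in shControl and 14.4 and 16.5 CPM in shNeuroD1 (log2 fold change -0.60, SE 0.11, edgeR adjusted p = 1.7e-05), a call lost without shControl library 2 (edgeR adjusted p = 0.0514). Of the 78 mitochondrial ribosomal proteins, 5 were higher and 36 lower, with a median of -0.19, while both rRNAs of the same ribosome rose. With library size alone 11 were higher (all genes 34.9%) and 23 lower (all genes 20.8%). Fewer were lower without shControl library 1 and fewer higher without shControl library 2, which also held for all genes tested. MRPS6 (-1.18), whose gene overlaps another gene of the same strand, MRPS11 (-0.58) and MRPL27 (-0.54) fell most, and MRPL40 (0.58), MRPS17 (0.37) and MRPS33 (0.32) rose most.

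The respiratory complexes are built from both genomes, so their nuclear subunits were set beside the members. Of 79 nuclear subunits tested, 5 (6.33%) were higher and 40 (50.6%) lower, against 26.8% and 28.2% of all genes tested, and the median on the log2 scale was -0.17. With libraries scaled by their size alone the counts became 10 higher (12.7%, all genes 34.9%) and 22 lower (27.8%, all genes 20.8%). Leaving out shControl library 1 gave 21 lower (26.6%, all genes 18.8%), among them 6 of complex IV, and without shControl library 2, 1 was higher. In complex IV, 10 of 12 nuclear subunits were lower and the median was -0.28, with COX7B and COX6A1 at -0.49 each, whereas the 3 members had a median of 0.18. COX6A1 measured 314 and 268 CPM in shControl and 208 and 205 CPM in shNeuroD1. In complex V, 10 of 17 nuclear subunits were lower and 2 higher (5 and 3 with library size alone) and the median was -0.17, whereas both members rose, with a median of 0.45. The catalytic subunit ATP5F1B measured 1052 and 1009 CPM in shControl and 805 and 809.9 CPM in shNeuroD1 (log2 fold change -0.35, edgeR adjusted p = 2.8e-09). ATP5PF (-0.41) fell most in that list, and ATP5MF (0.34) and ATP5MC1 (0.18) rose.

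In complex I, 3 of 37 nuclear subunits were higher (8.11%) and 12 lower (32.4%, near the 28.2% of all genes). With library size alone 7 of these subunits were higher (all genes 34.9%) and 7 lower (all genes 20.8%). With TMM scaling, the median of the 37 was -0.09 on the log2 scale, beside 0.08 for the 7 members. NDUFA6 (-0.65) and NDUFB1 (-0.46) fell most and NDUFC1 (0.39) and NDUFA5 (0.31) rose most. In complex III, 6 of 9 nuclear subunits were lower, with a median of -0.19, led by UQCRC1 (-0.36) and CYC1 (-0.24), beside -0.05 for MT-CYB. Only 1 of these 9 was lower with library size alone (all genes 20.8%) or the upper quartile (all genes 21.6%), and DESeq2 called 3 (all genes 21.5%). Complex II has no subunit in the mitochondrial genome, and 2 of its 4 genes were lower, SDHD (-0.46) and SDHA (-0.35). Fewer nuclear subunits of complexes I, II and III were lower without shControl library 1, and fewer of complexes II and III without shNeuroD1 library 2. All genes tested also had fewer lower calls in these fits. The difference between the 2 genomes within a complex was not tested.

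**Figure D4:**
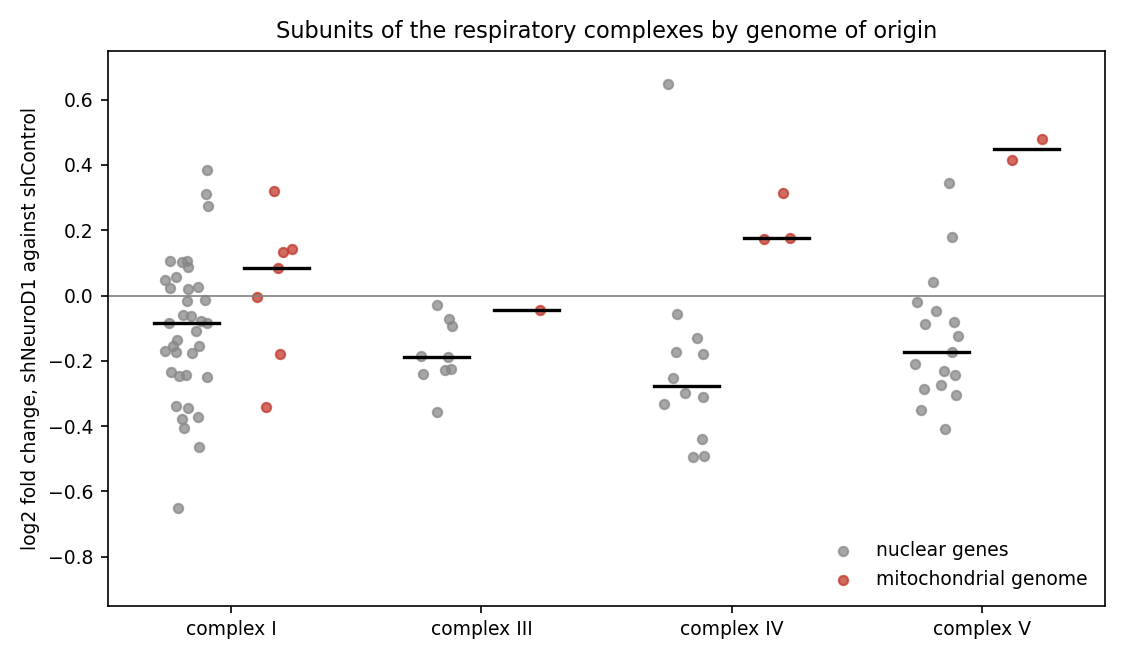
Log2 fold change, shNeuroD1 against shControl, of each tested subunit gene of complexes I, III, IV and V (vertical axis, log2), grey for nuclear genes and red for the mitochondrial genome, with black lines at the medians. In complexes IV and V the members lie between 0.17 and 0.48, and the nuclear subunits have medians of -0.28 and -0.17.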

How the data were processed

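RNAseq was measured in 4 IMR-32 libraries, 2 shControl and 2 shNeuroD1. Per the labels and the methods, the authors trimmed paired reads with cutadapt 1.9.1, aligned them to hg38 with HISAT2 2.0.1, and counted read pairs per gene with HTSeq 0.6.1, and the deposited table holds these raw counts. Strand setting, overlap mode and annotation release are not given in the sources used here. The authors also deposited FPKM of transcript starts, ends and splicing events per library, made from assembled transcripts, and these entered no test. The authors' own fold changes and p-values from DESeq2 were not used.

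Symbols came from a reference list of gene names, which covered 60401 of 60612 gene IDs, and otherwise from GENCODE release 29. Positions and sequences came from GENCODE release 29 (GRCh38). Counts were fitted over the whole table with edgeR 4.0.16 in R 4.3.3 (two-sided quasi-likelihood F test, TMM scaling, filterByExpr with a minimum count of 10, 17537 genes tested, Benjamini-Hochberg adjustment, called at an adjusted p under 0.05). Depth was 14665210 to 16482463 counts per library, with TMM factors of 0.959 to 1.04. Levels are CPM of TMM-scaled libraries, per kilobase of gene where genes are compared, and standard errors and 95% intervals are those of the fit. Shares use unscaled counts with exact binomial intervals.

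Every protein-coding, rRNA and tested tRNA member was named. Of each nuclear list, up to 2 called genes with the largest rise and 2 with the largest fall were named (3 each way for the ribosomal proteins), with POLRMT, TFAM, TFB2M, TEFM, LRPPRC, SLIRP, PPARGC1A and NEUROD1 always, and the 3 nuclear copies with the highest counts. RNA selection genes, cell markers and PPARGC1B were named outside this rule after their values were seen. One marker is not reported here. The members and lists were chosen with earlier results of these data known. Alternatives were DESeq2 size factors, library size alone, upper quartile scaling, scaling without the members, scaling by the members' sum, other filters, the DESeq2 1.42.0 Wald test, a replicate block, a log2 fold change limit, and leaving out each library.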

Additional observations from a re-analysis of the deposited data

Results flagged for a closer look

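The FPKM lists of assembled transcript events, which entered no comparison, named a few events on the mitochondrial chromosome, all on the minus strand. In shNeuroD1 library 1, a transcript end at chrM:10362-10599 was listed at 24.97 FPKM and one at chrM:10362-10510 at 9.84 FPKM, in a stretch where the annotation places MT-ND3, MT-TR and MT-ND4L on the plus strand. These drew attention because no shControl library listed an event there and the report uses no such values. The controls listed other minus strand events: shControl library 1 a transcript start at chrM:9359-9693 and an end at chrM:5587-5960 at 63.0 FPKM each, and shControl library 2 a start at chrM:13640-13696 at 5.29 FPKM. The other knockdown library listed none, so no event was shared by the 2 libraries of a group. The lists hold only events above 0, the number of reads behind them is unknown, and their origin was not tested.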

How the results depend on the processing

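Another scaling moved the median log2 fold change of all genes from 0.01 to 0.12 with library size alone, 0.10 with the upper quartile and -0.16 with the members' sum. The share of lower genes among all calls went from 51.3% to 37.3%, 39.2% and 69.1%. With library size alone and the upper quartile, 1 member was lower under each, in place of 2. In the same order, the machinery lists had 27 and 25 genes higher and 41 and 43 lower, in place of 13 and 65, and the nuclear subunits 10 and 9 higher and 22 and 24 lower, in place of 5 and 40. With the members' sum, 5 members were higher and 5 lower. When a log2 fold change beyond 1 was also asked for, 0 members were higher and 0 lower, against 10 and 2 without that limit, and the machinery lists kept 0 higher and 1 lower and the nuclear subunits 0 and 0. Leaving out each library in turn, where a lone library was assumed to vary like the other group, gave 7 to 9 members higher and 2 to 3 lower. It gave 7 to 13 machinery genes higher and 32 to 55 lower, and 1 to 5 nuclear subunits higher and 21 to 39 lower, the lowest counts without shControl library 1 or 2. All genes tested also had fewer higher and fewer lower calls each time a library was left out. The log2 ratio of the members' share was 0.28 and lay between 0.25 and 0.32 under its alternatives.

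Values near 0 changed sign. With library size alone and the upper quartile, MT-ND3 was 0.11 and 0.091, MT-CYB 0.067 and 0.050 and MT-TP 0.099 and 0.082. With the members' sum, MT-ND1 was -0.083, MT-ND4L -0.034 and MT-ND4 -0.027, and with a filter of 1 CPM MT-ND3 was 0.0082. Over left-out libraries, MT-ND1 ran from -0.046 to 0.21, MT-ND3 from -0.068 to 0.053, MT-CYB from -0.12 to 0.016, MT-TP from -0.070 to 0.022, POLRMT from -0.044 to 0.088 and MTCO1P12 from -0.0017 to 0.57. DESeq2 called 9 members higher and 2 lower. Of 604 values in all alternatives, 505 were labelled the same. For this a single gene had to keep its direction and its side of the threshold. A count of genes had only to stay within a set ratio of the main count. The fall from 65 lower machinery genes to 44 with DESeq2 was thus labelled the same. The cause of the other changes was not tested.

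The labels do not say whether libraries with the same replicate number belong together. Deviations of same-numbered libraries had a correlation of 0.02 over 17537 genes, which cannot settle this with 2 libraries per group. With the replicate block, 11 members were higher and 2 lower (MT-ND1 at 0.09 became called), the machinery lists had 13 higher and 67 lower and the nuclear subunits 5 higher and 42 lower.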
